A study of Mus musculus with 4 samples.

Results

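Fos, Fosb, Jun, Junb, Egr1, Atf3, Ier2, Dusp1, Zfp36 and Cyr61 are 10 immediate early genes, and they were taken by symbol from the 31053 genes of the deposited count matrices. All 10 were found, and all are described over 12 cell types and between 2 genotypes of mouse duodenal crypt cells. The study made single-cell RNA libraries from sorted cells (10x Genomics, 3' v3.1) carrying the red reporter TOM. The 2 libraries named WT came from Atoh1CreER-T2;R26RTom mice, and the 2 named APC-KO carry the label Atoh1Cre;Apcfl/fl;R26RTom, whose driver the series' own design text writes as CreER-T2. Both genotypes received tamoxifen, given as 2 doses of a 1 mg/mL solution 24 h apart, and crypts were taken 12 h after the last dose. Atoh1 is a transcription factor of the secretory lineage, so Cre under Atoh1 switches on TOM, and removes the floxed part of Apc, in Atoh1-expressing cells and their progeny. The labels give no age, sex, animal or batch for a library. The p-values between genotypes therefore measure only the spread between libraries, which may be technical. Those between types measure the spread of the sums that is left once type and library are fitted.

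Immediate early genes are transcribed within minutes of a stimulus, without new protein synthesis, and their mRNAs decay fast. Growth factors, mechanical stress and heat reach them through MAP kinases, serum response factor and CREB. Their products form AP-1 dimers (Fos, Fosb, Jun, Junb), act as other transcription factors (Egr1, Atf3), or end the signal. Dusp1 dephosphorylates MAP kinases, and Zfp36 binds AU-rich mRNAs and leads to their decay. Ier2 is a nuclear protein of the early response. Cyr61, also named Ccn1, is a secreted matrix protein and a target of YAP and serum response factor. Tissue dissociation, above all at body temperature, is known to raise these genes in single-cell data.

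Crypts were released here in 5 mM EDTA for 45 min at 4°C, passed through a 70 µm strainer, and then dissociated in 4% TrypLE for 30 to 45 min at 37°C before the sort, in all groups alike. No undissociated tissue was measured, so a level in the crypt and a level gained in handling cannot be told apart in any value below. How long within that range each library was incubated is not given.

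The promoters of 4 members are shown as examples, and some of the motifs marked in them are shared between roles. They are the 250 bases before the RefSeq start site in GRCm38.p6, with the motif matches in capitals, 5′ to 3′ on the strand of the gene. The tables matched 8 of the 10 members, all but Egr1 and Ier2. The first 2 encode AP-1 subunits and the last 2 encode proteins that end the response.
Fos, chr12:85473640-85473889, plus strand: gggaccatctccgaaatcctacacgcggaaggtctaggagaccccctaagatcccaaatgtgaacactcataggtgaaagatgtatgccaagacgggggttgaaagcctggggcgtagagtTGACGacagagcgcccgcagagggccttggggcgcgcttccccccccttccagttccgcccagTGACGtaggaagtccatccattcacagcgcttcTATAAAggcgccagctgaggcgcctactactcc
Fosb, chr7:19310046-19310295, minus strand: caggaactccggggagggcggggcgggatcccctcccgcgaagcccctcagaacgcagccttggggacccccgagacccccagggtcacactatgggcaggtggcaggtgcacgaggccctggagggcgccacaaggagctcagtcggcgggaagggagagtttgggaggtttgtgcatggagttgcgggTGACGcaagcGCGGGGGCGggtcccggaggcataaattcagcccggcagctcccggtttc
Dusp1, chr17:26508473-26508722, minus strand: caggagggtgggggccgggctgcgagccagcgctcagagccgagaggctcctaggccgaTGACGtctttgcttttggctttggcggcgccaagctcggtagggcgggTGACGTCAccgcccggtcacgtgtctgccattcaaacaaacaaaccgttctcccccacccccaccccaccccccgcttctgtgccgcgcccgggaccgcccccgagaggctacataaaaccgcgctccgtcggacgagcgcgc
Zfp36, chr7:28379229-28379478, minus strand: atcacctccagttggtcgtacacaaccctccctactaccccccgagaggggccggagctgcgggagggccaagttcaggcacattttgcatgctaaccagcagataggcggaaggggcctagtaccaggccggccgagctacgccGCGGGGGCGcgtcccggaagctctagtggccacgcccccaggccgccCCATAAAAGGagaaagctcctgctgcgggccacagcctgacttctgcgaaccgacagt

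Motifs were searched on both strands of a window of 250 bases before to 50 bases after each start. The core CREB site TGACG lay in 6 of the 8 member windows (Fos, Fosb, Junb, Atf3, Dusp1 and Cyr61) and in 20.8% of all 32851 windows. Its full palindrome TGACGTCA, which contains the core site, lay in the Dusp1 window alone and in 1.79% of all windows. The CArG box bound by serum response factor lay in the Zfp36 window alone and in 1.63% of all. The Egr-family motif GCGGGGGCG lay in the windows of Fosb and Zfp36 and in 2.91% of all. TATAAA lay in the windows of Fos, Junb and Cyr61 and in 13.6% of all, the TEAD motif GGAATG in that of Cyr61 and in 14.7% of all, and the AP-1 motif TGANTCA in none of the 8 and in 7.81% of all. These matches describe letters in a window, not bound sites.

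The members lie on different chromosomes for the most part. By GENCODE vM21 (GRCm38), Fos spans chr12:85473890-85477273, Jun chr4:95049034-95052222, Atf3 chr1:191170296-191218039 and Zfp36 chr7:28376784-28380253. Reads of a gene and of an overlapping gene on the other strand cannot be told apart where the counting did not use strand, which is not stated. Junb overlaps Prdx2 and Jun overlaps the antisense gene Junos in this way, and Dusp1 overlaps Ergic1. Dusp1 also overlaps AC122252.4 and AC122252.1 on its own strand, where strand cannot separate the reads.

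Pairs of values are given as replicate 1, then replicate 2. The authors kept 4814 and 3821 WT cells and 356 and 6243 APC-KO cells. Median UMIs per kept cell were 4841.5, 5354, 8370 and 3973 in the same order, and 1 to 8 barcodes were shared between any pair of libraries. APC-KO replicate 1 stands apart: although its matrix held 58403427 UMIs, close to the 54230249 to 61032126 of the others, it has at least 20 kept cells in 3 types only, EC (45 cells), GOBLET (28) and GOBLET-PRE (184). Apc was at 87.2 and 77.9 CPM (UMIs of the gene per 1000000 UMIs) in WT and 88.1 and 88.1 in APC-KO. A 3' tag outside the deleted part checks nothing. The fixed markers of each type were highest in the type of that name, with the exception of SEC-PRO, whose 3 markers summed to 479 CPM against 562 in GP. Epithelial markers summed to 5723 to 7684 CPM in the 4 libraries. Markers of immune cells (1.66 to 7.15), stroma (0.0476 to 1.33), endothelium (0.806 to 2.66) and red cells (0.476 to 39.2) were low.

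Over the 12 types, the 10 genes were high and low together. Their UMIs, summed over the cells of a type in a library, were highest per library total (CPM) in EC and GOBLET-PRE and lowest in GOBLET and ISC. On the TMM scale of the tests below the order differed: the members' median difference from the other types was highest in PANETH (1.76), then GOBLET-PRE (1.52) and EC (0.98), and lowest in ISC (−1.79), TUFT (−1.32) and GOBLET (−1.22). The sum of the 10 genes was 7512 and 7845 CPM in WT EC cells and 8735 and 6659.9 in APC-KO EC cells. In GOBLET-PRE it was 5954 and 9185 in WT and 6604 and 6663 in APC-KO. In GOBLET it was 544 and 616 in WT and 2615 and 707 in APC-KO, where the first value rests on 28 cells. ISC, the type that carried the stem cell markers Lgr5 and Olfm4, held 1041 and 1173 in WT and 1058 in APC-KO replicate 2. By WT mean the order was EC, GOBLET-PRE, GP, PANETH-PRE, NON-EC, PANETH, SEC-PRO, EEC-PRE, TUFT, ENTERO-PRO, ISC and GOBLET. WT ranges of neighbours in this order overlapped except between NON-EC and PANETH, SEC-PRO and EEC-PRE, ENTERO-PRO and ISC, and ISC and GOBLET. Between NON-EC and PANETH the gap was narrow, from 5073 down to 5033 CPM.

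**Figure D1:**
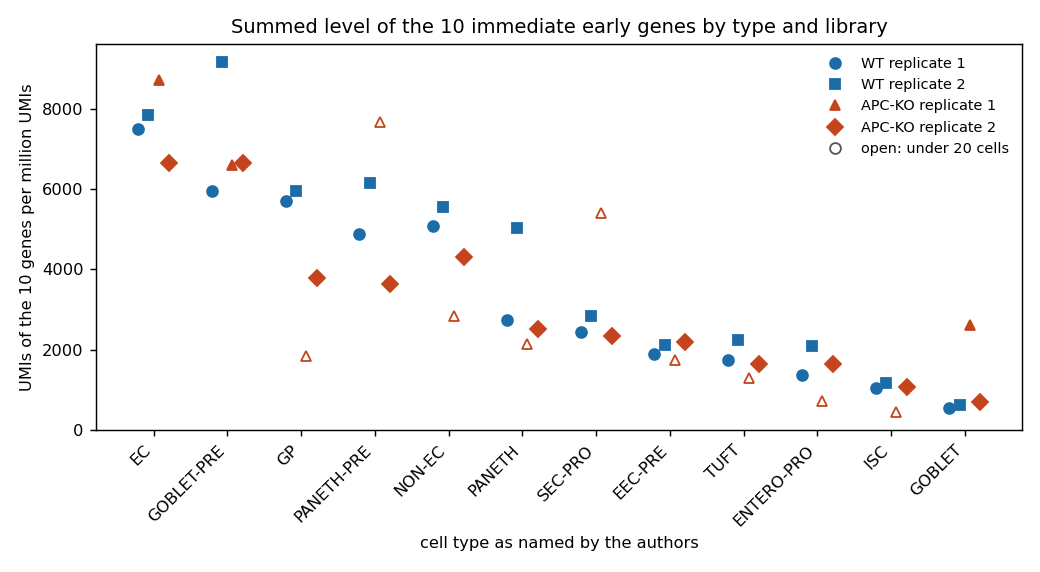
UMIs of the 10 genes as CPM (vertical axis, linear) in each cell type (horizontal axis, ordered by WT mean), 1 point per library. Circles and squares are WT replicates 1 and 2, triangles and diamonds are APC-KO replicates 1 and 2, and open points rest on under 20 cells. GOBLET-PRE lies between 5954 and 9185 in the 4 libraries and GOBLET between 544 and 2615.

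Each type was compared with the unweighted mean of the other types in 1 edgeR quasi-likelihood fit of 39 sums with library as a block, scaled by TMM (a factor that discounts genes which take up much of a library). The type names came from the authors' clustering of the same cells, so these tests are not independent of the names. In GOBLET-PRE all 10 members were higher, against 29.9% of the 11411 genes tested, by log2 differences of 1.15 to 2.40. Dusp1 (2.40 ± 0.09 SE), Cyr61 (2.37 ± 0.12) and Atf3 (2.34 ± 0.15) differed most, with adjusted p-values of 3.84e-27, 2.58e-22 and 3.9e-18. In GOBLET 9 members were lower (28.5% of genes), led by Jun (−2.04 ± 0.22, adjusted p = 1.02e-10) and Egr1 (−1.94 ± 0.22, adjusted p = 1.95e-10). Dusp1 was the member that did not pass there (−0.27 ± 0.22, adjusted p = 0.295), and it passed as lower, like the other 9, when library totals alone set the scale. That scale moved the median of all genes in GOBLET from −0.23 to −0.93 and the members' median from −1.22 to −1.81. It moved the median of all genes by more than 0.1 in other types too, to 0.51 in EC, 0.59 in NON-EC, 0.42 in TUFT, 0.28 in EEC-PRE, 0.21 in SEC-PRO, 0.16 in ISC, −0.23 in GOBLET-PRE and −1.26 in PANETH. The members' median under that scale was 1.28 in GOBLET-PRE, 1.43 in EC and −1.60 in ISC.

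GOBLET-PRE and GOBLET, the types with the highest sums of goblet markers, lay far apart in these genes. All 10 members had a higher CPM in GOBLET-PRE in every library. The median ratio over the 10 genes was 10.7 and 16.2 in WT and 2.89 and 8.63 in APC-KO. These are ratios of CPM without TMM. The TMM factors were 0.64 and 0.60 in WT GOBLET against 0.87 and 0.93 in WT GOBLET-PRE. In APC-KO they were 0.85 and 0.67 against 0.82 and 0.87. On the TMM scale the ratios are therefore smaller in every library but APC-KO replicate 1. Among the AP-1 subunits, Fos, which must pair with a Jun protein to bind DNA, was at 1272 and 2187 CPM in WT GOBLET-PRE and 139 and 157 in WT GOBLET. Jun, which can also pair with itself, was at 1269 and 1725 CPM in WT GOBLET-PRE and 74.0 and 70.1 in WT GOBLET. Both groups were far apart in each gene. Fosb, with the same partners as Fos, was at 695 and 964 against 30.8 and 41.8 CPM in WT. Junb, a weaker activator than Jun, was at 361 and 589 against 89.999 and 101 CPM.

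Atf3, another transcription factor, belongs to the ATF/CREB family and is induced by many stresses. It was at 745 and 1139 CPM in WT GOBLET-PRE and 23.4 and 37.5 in WT GOBLET. Egr1, a zinc finger factor induced through serum response factor, was at 766 and 1285 against 41.9 and 70.1 CPM. Ier2, a nuclear protein of the early response, was at 436 and 623 against 80.1 and 93.4 CPM. The same gap was seen in the genes that end the response. Dusp1 was at 166 and 274 against 24.7 and 24.8 CPM, and Zfp36 at 169.8 and 249.9 against 33.3 and 17.7. Cyr61 was at 76.2 and 149 CPM in WT GOBLET-PRE and rested on 5 UMIs in each WT library in GOBLET (6.16 and 3.54 CPM).

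EC cells, which carried Tph1 and Chga of serotonin-producing endocrine cells, were higher for 9 of the 10 members than the mean of the other types, against 31.2% of genes. Egr1 was at 1395 and 1287 CPM in WT and 1768 and 1530.3 in APC-KO EC cells (difference from other types 1.24 ± 0.15, adjusted p = 5.79e-10). Junb was at 554 and 688 CPM in WT and 637 and 412 in APC-KO (1.10 ± 0.11, adjusted p = 2.26e-12). Cyr61 was the exception, at 41.5, 44.9, 43.9 and 25.1 CPM in the 4 libraries (0.24 ± 0.22, adjusted p = 0.357). EEC-PRE, with the endocrine precursor markers Neurog3 and Neurod1, had lower levels than EC for 10 of 10 members in each of the 3 libraries compared, with median EC to EEC-PRE ratios of 4.57 and 3.96 in WT and 3.54 in APC-KO replicate 2. In EEC-PRE 9 members were lower than in the other types (20.4% of genes), with Egr1 short of the threshold (−0.27 ± 0.19, adjusted p = 0.266). NON-EC, with the other gut hormones, was higher for Junb, Egr1, Zfp36 and Cyr61, 4 members against 28.2% of genes. Scaled by library totals alone, 9 members were higher in NON-EC, against 53.6% of genes.

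**Figure D2:**
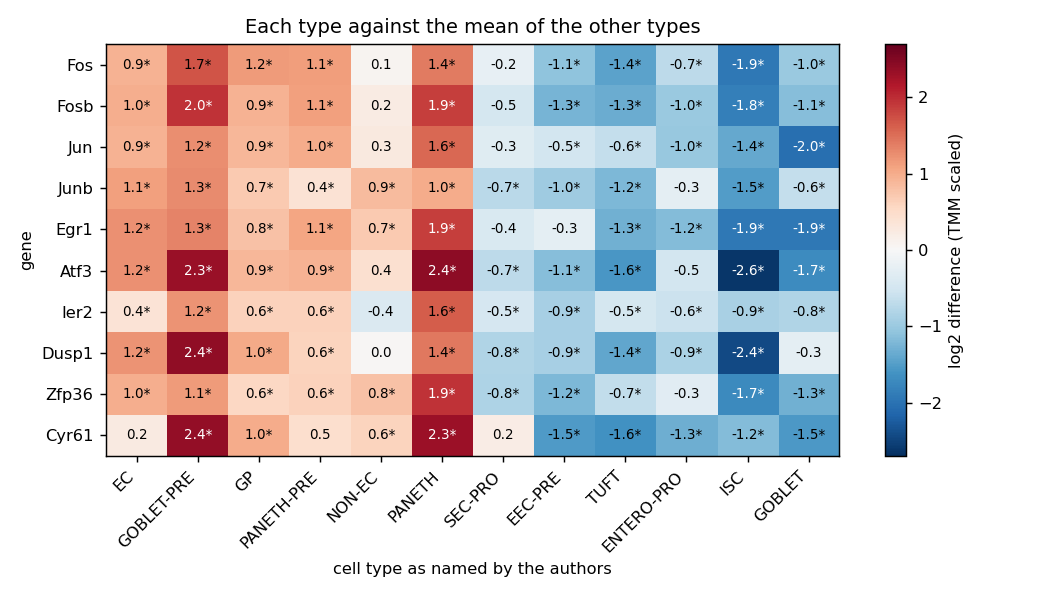
Log2 difference of each type (columns) from the mean of the other types for each of the 10 genes (rows), as colour and number, TMM scaled, with an asterisk where the edgeR adjusted p was under 0.05. GOBLET-PRE, GP and PANETH are higher in all 10 rows, while ISC and TUFT are lower in all 10. In PANETH the direction of Junb turns, and only 5 genes stay higher, when library totals alone set the scale.

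ISC was lower for all 10 members, against 28.4% of genes. Atf3 was at 55.7 and 29.1 CPM in WT and 44.6 in APC-KO replicate 2 (−2.62 ± 0.26, adjusted p = 6.29e-12). Dusp1 was at 13.7 and 15.6 CPM in WT and 6.85 in APC-KO replicate 2 (−2.45 ± 0.18, adjusted p = 1.74e-16). From ISC to SEC-PRO all 10 members were higher in each of the 3 libraries, with median ratios of 2.67, 2.63 and 2.38. From SEC-PRO to GP they were again higher for 10 of 10, with median ratios of 2.42, 2.12 and 1.62. Against the other types, SEC-PRO was lower for 5 members, Atf3, Dusp1, Ier2, Junb and Zfp36 (19.5% of genes), and for 3 members when either WT library was left out. With library totals alone 3 members were lower there (Dusp1, Junb and Zfp36) and Cyr61 was higher (0.48, adjusted p = 0.0162). GP was higher for all 10, against 21.2% of genes, by 0.57 to 1.15. TUFT was lower for all 10 (16.6% of genes) and ENTERO-PRO for 7 (20% of genes), with Atf3, Junb and Zfp36 short of the threshold in the latter.

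The 10 most abundant genes held 67.5%, 65.9% and 43.7% of the UMIs of PANETH cells in WT replicates 1 and 2 and APC-KO replicate 2, and 44.3% to 51.5% in GOBLET, against 8.06% to 23.2% in the other types. PANETH-PRE was higher for 9 members, all but Cyr61, against 13.8% of genes. PANETH was higher for all 10 under TMM, against 16.8% of genes, by 0.99 to 2.43. With library totals alone, 5 members stayed higher in PANETH (Atf3, Cyr61, Egr1, Fosb and Zfp36, against 2.94% of genes), while Junb turned from 0.99 to −0.37 (adjusted p = 0.00924). Fos was at 459, 833 and 416 CPM in PANETH in WT replicates 1 and 2 and APC-KO replicate 2, and at 1042, 1489 and 702 in PANETH-PRE. By CPM, 9, 6 and 9 members were higher in PANETH-PRE than in PANETH in these libraries. On the TMM scale the order turned, with a median difference from the other types of 1.76 in PANETH and 0.78 in PANETH-PRE.

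Among themselves the members ran close together over types. Over the 39 sums of type and library, the median Pearson correlation of 45 pairs of members was 0.90, on log2(CPM + 1) centred within each library, and ranged from 0.77 (Junb and Cyr61) to 0.97. All pairs share the same libraries and cells. The 10 other genes whose pattern was most like the members' mean, of 6028 with a mean of at least 20 CPM, were Trib1 (0.93), Chka (0.90), Fam71a (0.88), Dnajb1 (0.87), Far1 (0.84), Ppp1r15a (0.83), Btg2 (0.82), Dusp5 (0.82), Rcn1 (0.81) and Nr4a1 (0.80), and 6 of them were in the gene lists described next.

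A list of 36 other immediate early and early response genes had 27 higher and 0 lower members in GOBLET-PRE (29.9% of all genes were higher and 23.3% lower), with a median log2 difference of 0.75 against −0.02 for all genes. Klf4, a goblet cell differentiation factor (2.06 ± 0.09), Csrnp1 (1.98 ± 0.20) and Klf6 (1.73 ± 0.12) were among the 5 that differed most. Nr4a3 and Fosl1 (means of 5.18 and 1.72 CPM over the sums) were the others. In ISC 23 of the 36 were lower and 4 higher (28.4% and 33.3% of all genes), with Klf4 (−2.41 ± 0.15) and Gadd45g (−2.38 ± 0.17) among the lower and Myc, a Wnt target, among the higher (2.31 ± 0.13). In GOBLET 13 were higher and 11 lower, shares not far from those of all genes (24.3% and 28.5%), with a median of 0.12 against −0.23 for all genes. Klf4 was higher there (2.49 ± 0.10), Nr4a2 (−3.67 ± 0.51) and Myc (−2.37 ± 0.52) lower. In EC 21 were higher and 3 lower (31.2% and 24.8% of all genes).

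Of 14 MAP kinase phosphatases and feedback genes, 11 were higher and 0 lower in EC, with a median of 2.12 against 0.04 for all genes. Dusp5 (2.79 ± 0.12), Dusp4 (2.77 ± 0.17) and Dusp16 (2.67 ± 0.09), which dephosphorylate MAP kinases as Dusp1 does, were among the 5 that differed most, with Dusp2 and Spry4, whose low counts elsewhere allow no firm fold. In GOBLET-PRE 4 of the 14 were higher and 2 lower, near the 29.9% and 23.3% of all genes. Of 14 heat shock genes, GOBLET-PRE had 4 higher, again near that share, the inducible chaperones and cochaperones Hspa1a (1.63 ± 0.17), Dnajb1 (1.54 ± 0.09), Hspa1b (1.38 ± 0.15) and Bag3 (1.15 ± 0.08), and 7 lower, led by Hsph1 (−1.03 ± 0.10). In ISC 8 of the 14 were higher and 3 lower (33.3% and 28.4% of all genes), while Hspa1a (0.58 ± 0.23) was higher and Dnajb1 (−0.93 ± 0.13) lower. GOBLET had 10 lower and 0 higher (28.5% and 24.3% of all genes), with Hsph1 at −2.82 ± 0.23.

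Between genotypes no member passed edgeR's threshold in all cells, EC, GOBLET or GOBLET-PRE with the settings used throughout. Members that passed with no filter or without 1 library are named below. Summed over all kept cells, 0 of 10 members were called, against 0.0% of 13345 genes (edgeR: 0 genes called, 495 at an unadjusted p under 0.05, none of them a member; DESeq2: 23 genes called and 0 members). Fos was at 831 and 1327 CPM in WT and 1104 and 538 in APC-KO. Jun was at 976 and 1166 in WT and 1323 and 808 in APC-KO. The genotypes overlapped in each of the 10 genes, so 0 members lay apart, against 35.4% of genes with a mean of at least 5 CPM. APC-KO replicate 2 was the lowest library for each of the 10 genes over all cells, whereas APC-KO replicate 1 lay near or above WT replicate 2 for several. Sums over all cells also carry the mix of types. GOBLET-PRE, where the members were high, held 1281 of 4814 and 1247 of 3821 kept WT cells. In APC-KO it held 184 of 356 and 1079 of 6243. ISC, where they were low, held 575, 228, 13 and 1245 cells in the same order. The part of this mix in the all-cell differences was not tested. The median log2 fold change of the members was −0.14, and −0.88 without APC-KO replicate 1.

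Within EC, 0 of 10 members were called (0.0% of 8690 genes; edgeR: 729 genes at an unadjusted p under 0.05, none a member; DESeq2: 6 genes and 0 members). For 4 members the libraries of the genotypes did not overlap, against 38.2% of genes. Egr1 and Fosb (594 and 576 CPM in WT, 728 and 675 in APC-KO) lay higher in APC-KO. Fos (1460.3 and 1724 against 1424 and 1075) and Dusp1 (172 and 142 against 132 and 108) lay lower. None of these differences passed the test (Egr1 0.37 ± 0.23, Fosb 0.33 ± 0.21, Fos −0.28 ± 0.24, Dusp1 −0.37 ± 0.22). Within GOBLET-PRE, 0 of 10 were called (0.00974% of 10272 genes, 1 gene; edgeR: 0 members at an unadjusted p under 0.05; DESeq2: 38 genes and 0 members), and 0 of 10 lay apart (42.7% of genes). All 10 fold changes lay between −0.34 and 0.17.

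**Figure D3:**
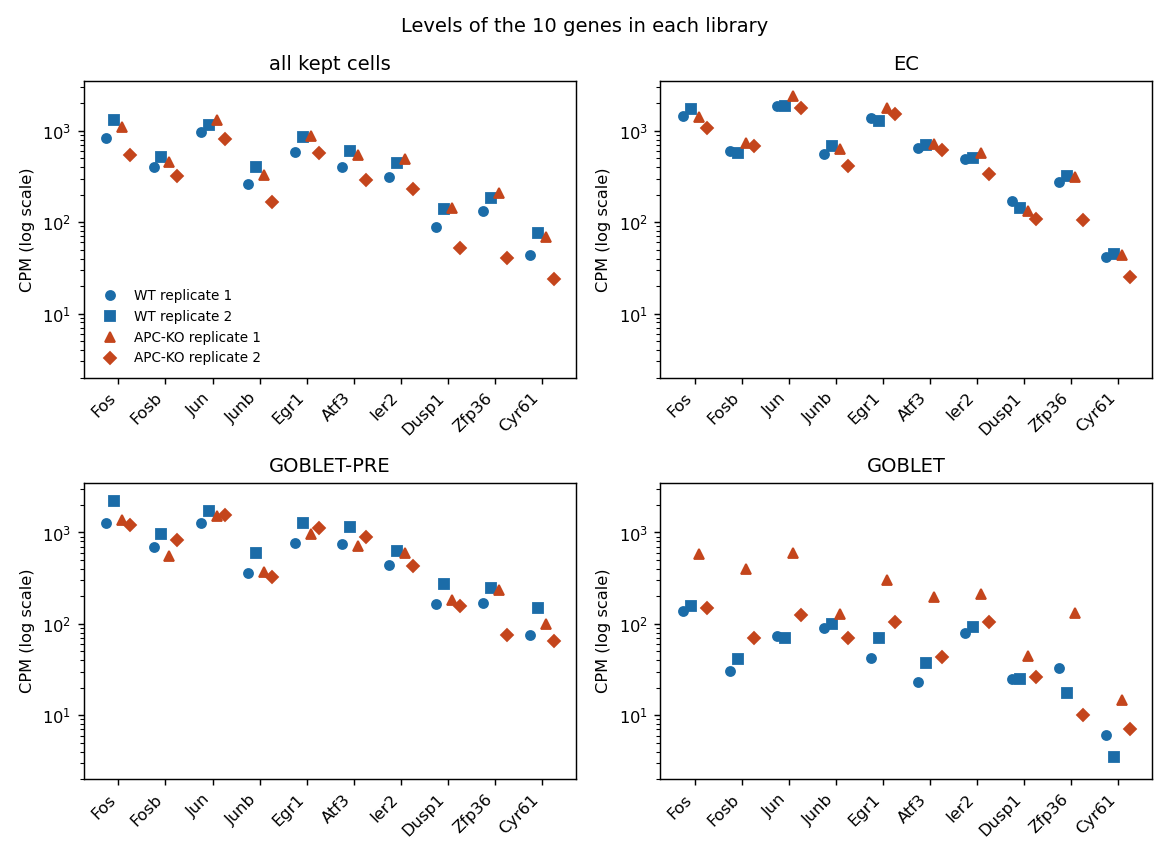
CPM of each gene (vertical axis, log scale) in all kept cells and in the 3 types with at least 20 cells in every library, 1 point per library. In GOBLET the triangles (APC-KO replicate 1, 28 cells) lie above the other 3 libraries for each gene, and for Jun they reach 602 CPM against 70.1 to 124. In all kept cells Zfp36 of APC-KO replicate 2 (diamonds) is at 40.5 CPM against 132 to 208.

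GOBLET gave the largest differences. Jun was at 74.0 and 70.1 CPM in WT and 602 and 124 in APC-KO (log2 fold change 2.00 ± 0.50, adjusted p = 0.261, edgeR). Fosb was at 30.8 and 41.8 in WT and 402 and 69.3 in APC-KO (2.19 ± 0.58, adjusted p = 0.261). Egr1 was at 41.9 and 70.1 in WT and 304 and 103.9 in APC-KO (1.45 ± 0.41, adjusted p = 0.270). By CPM, both APC-KO libraries lay above both WT libraries for 7 of the 10 members (Fosb, Jun, Egr1, Atf3, Ier2, Dusp1 and Cyr61), against 27.9% of 7744 genes. In either direction 41.6% of genes lay apart, 2163 higher and 1061 lower in APC-KO. These counts depend on the scale. The median log2 fold change of all genes in GOBLET was 0.16 with library totals alone and 0.01 with TMM. Of the 9 members tested, 0 were called (0.0837% of 5974 genes, 5 genes) and 5 had an unadjusted p under 0.05, with 4 by DESeq2. Cyr61, with 3 to 7 UMIs per library, fell below the filter. With no filter on low counts, Fosb, Jun, Egr1 and Atf3 passed (adjusted p = 5.24e-09 to 0.0196). Without APC-KO replicate 1 the fold changes of Jun, Fosb and Egr1 were 0.68, 0.78 and 0.73, and that of Fos went from 0.99 to −0.11.

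Zfp36 set APC-KO replicate 2 apart. It was at 132 and 184 CPM in WT, 208 in APC-KO replicate 1 and 40.5 in APC-KO replicate 2. The low value recurred in each of the 12 types, where APC-KO replicate 2 lay below both WT libraries, at 0.207 to 0.439 times the WT mean. This pattern was picked out after its values were seen, and 36 of 6038 genes with a mean of at least 20 CPM (0.596%) shared it. In EC it was at 274 and 323 in WT, 315 in APC-KO replicate 1 and 106 in APC-KO replicate 2, and in GP at 171 and 196 in WT and 39.9 in APC-KO replicate 2. APC-KO replicate 1 lay within or above the WT range, and the genotype difference was small against its error (all cells −0.23 ± 0.79, adjusted p = 1.00). Without APC-KO replicate 1, Zfp36 was the member called in all cells (−1.95 ± 0.25, adjusted p = 0.0223) and in EC (−1.45 ± 0.22, adjusted p = 1.01e-05). Junb, in that same library, was below both WT libraries in 11 of the 12 types, and Fos and Dusp1 in 10. Egr1 and Fosb were below them in 2 types and above them in 6. RNA in barcodes outside cells was low in Zfp36 in that library as well (77.9 CPM, against 142 to 245 in the others). This was not particular to Zfp36, as that library had the lowest outside level for each member. Fos was at 452 CPM against 676 to 770, and Fosb, with a narrow gap, at 226 against 227 to 280.

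Single cells differed widely within a type. To compare cells at equal depth, each was thinned to 2000 UMIs and the shallower ones were left out (161 and 50 WT cells, 10 and 292 APC-KO cells). Cells are not replicates, so the following are descriptions per library. Over all cells the median number of UMIs of the 10 genes was 4 and 7 in WT and 8 and 3 in APC-KO. The highest 10% of cells started at 24.0, 31.0, 28.5 and 18.0, and held 38.7%, 33.4%, 31.9% and 40.8% of all UMIs of the 10 genes. No UMI of the 10 genes was found in 19.1%, 14.3%, 12.7% and 20.5% of cells. Without thinning the medians were 10.0, 18.0, 32.5 and 7.0. These values over all cells also carry the mix of types in each library. Jun had a UMI in 58.4% of thinned WT replicate 1 cells (exact 95% interval 56.9 to 59.8%, counting error only) and 69.7% of the same library unthinned. Zfp36 had a UMI in 20.8%, 25.5% and 32.9% of thinned cells in both WT libraries and APC-KO replicate 1, and 8.03% in the other APC-KO library. No type is known to lack these genes. GOBLET, the lowest type, had a UMI of Jun in 12.3% and 11.1% of thinned WT cells, against 55.7% and 68.7% in GOBLET-PRE, at median depths of 4904 and 5252 UMIs against 5311 and 5747.

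**Figure D4:**
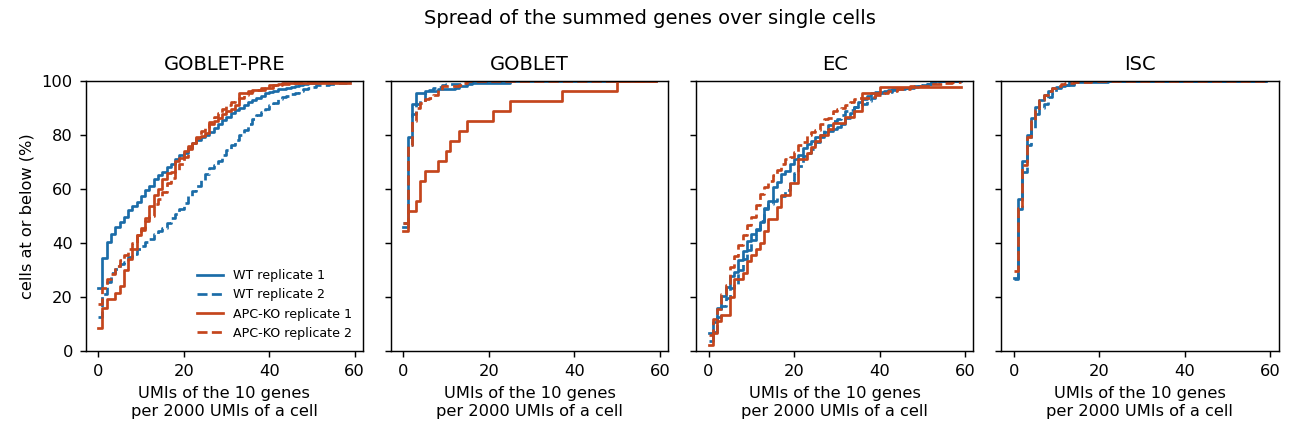
Share of cells (vertical axis, percent) with at most a given number of UMIs of the 10 genes per 2000 UMIs of the cell (horizontal axis), 1 line per library, blue for WT and red for APC-KO, dashed for replicate 2. GOBLET-PRE lines climb slowly to a median of 7 to 18, and GOBLET lines reach their median at 1, with a long tail in the 27 cells of APC-KO replicate 1.

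GOBLET-PRE was mixed. Its median was 7 and 18 UMIs in WT and 12 and 12 in APC-KO, the 10% lowest cells held 0 or 1, and the highest 10% began at 33.0, 40.0, 31.9 and 30.0. Within GOBLET-PRE the members ran against the goblet markers. Cells were ordered by their UMIs of Muc2, Tff3, Clca1, Fcgbp, Zg16 and Agr2 and split into 4 equal parts. From the part with the fewest marker UMIs to the part with the most, the median of the members went from 13.0 to 1.0 and from 25.0 to 3.0 in WT, and from 12.5 to 10.0 and from 16.0 to 6.0 in APC-KO. Spearman correlations over these cells were −0.24 and −0.34 in WT (1263 and 1241 cells) and −0.09 and −0.27 in APC-KO (182 and 1066 cells). All genes of a cell share its fixed total of 2000 UMIs, so a cell with more marker UMIs has fewer left for other genes. With heat shock genes the members ran together, at 0.33, 0.30, 0.16 and 0.28.

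In GOBLET the median was 1 UMI of the 10 genes in each of the 4 libraries. At least 10 UMIs were found in 5 of 163 and 4 of 270 WT cells, in 8 of 27 cells of APC-KO replicate 1 (29.6%) and in 5 of 255 of APC-KO replicate 2 (1.96%). The top 10% of GOBLET cells held 57.9% and 54.1% of the UMIs of the 10 genes in WT and 53.8% and 57.0% in APC-KO. In APC-KO replicate 1 the cells with at least 10 had a median of 576 UMIs of goblet markers, against 656 in its other cells. The medians were 718 against 794.5 and 864.5 against 885 in WT, and 726 against 796 in APC-KO replicate 2. Doublets were not removed here, and whether the authors removed them is not stated. Their part in this tail was not tested.

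Pairs of members varied together between cells as well. Over thinned cells the median Pearson correlation of the 45 pairs was 0.37, 0.37, 0.31 and 0.29 (WT first, then APC-KO), and the highest pairs were Fos with Atf3 (0.58), Fos with Jun (0.58), Jun with Egr1 (0.60) and Fos with Atf3 (0.55). Cells of different types enter these values together. Within GOBLET-PRE the medians were 0.43, 0.36, 0.28 and 0.27, within EC 0.32, 0.28, 0.24 and 0.33, and within ISC 0.13, 0.13 and 0.10 in the 3 libraries with enough cells. Counts of Atf3 had a variance of 4.18, 3.77, 4.26 and 3.94 times their mean over all thinned cells. For Zfp36 the factor was 1.47, 1.52, 1.22 and 1.10.

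RNA outside cells carried the members too, in most libraries at levels close to those in cells. In barcodes of 1 to 50 UMIs, Fos was at 676 and 762 CPM in WT and 770.0 and 452 in APC-KO, and Jun at 711, 728, 716 and 606. The median ratio of kept cells to these barcodes over the 10 genes was 1.08 and 1.42 in WT and 1.32 and 1.01 in APC-KO, and 5, 10, 7 and 5 members were above 1. The ratio was above 1 in every library for Fos, Fosb, Jun, Egr1 and Atf3. It was 0.47 for Cyr61 and 0.52 for Zfp36 in APC-KO replicate 2. Against barcodes of 1 to 10 UMIs the median ratio was 1.07 and 1.38 in WT and 2.01 and 0.88 in APC-KO. There 5, 9, 10 and 5 members were above 1.

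**Figure D5:**
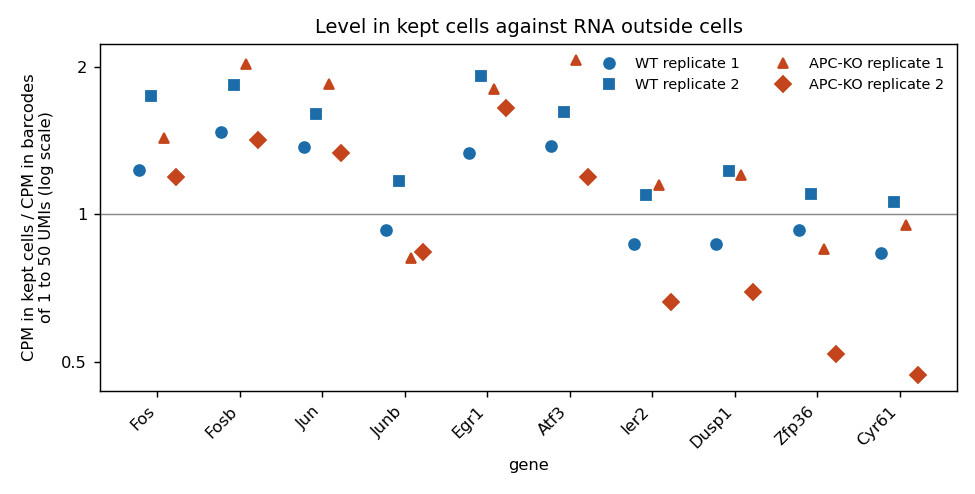
CPM in kept cells divided by CPM in barcodes of 1 to 50 UMIs of the same library (vertical axis, log scale) for each gene, 1 point per library. Fos, Fosb, Jun, Egr1 and Atf3 lie above the line at 1 in the 4 libraries, and APC-KO replicate 2 (diamonds) falls to 0.47 for Cyr61.

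By type, GOBLET-PRE lay above the level in barcodes of 1 to 50 UMIs for 10, 10, 8 and 9 members in the 4 libraries. ISC, TUFT and ENTERO-PRO lay at or below it for 10 of 10 in each library with at least 20 cells. So did GOBLET in 3 of its 4 libraries. The median ratio to outside RNA was 0.162 and 0.153 in WT GOBLET and 0.587 and 0.300 in APC-KO GOBLET. How much of the low levels in these types is RNA taken up from outside was not tested. With outside RNA subtracted at 5% of each sum, the count of members called differed from the counts above by no more than a factor of 1.5 in any of the 12 types. The 5% was a set share, not an estimate from these cells, and larger shares were not tried.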

How the data were processed

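The deposited matrices hold UMI counts per gene for all barcodes, before cell calling. Per the submitters' processing notes they were made with Cell Ranger 3.0.2 and STAR on mm10, and the annotation release and strand setting are not given in the sources used here. The authors also deposited tables of the cells they kept, with the library and type name of each cell, its counts and the percent of mitochondrial UMIs. How cells were filtered and named is not given there. The 10 genes and the gene lists were chosen with earlier results of these data known.

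Counts of the kept cells were summed per type and library, and sums of under 20 cells were left out of the fits. CPM is UMIs of a gene per 1000000 UMIs of the sum. Genotypes were compared, and each type was compared with the mean of the other types (types with such sums in at least 3 libraries, library as a block), with edgeR 4.0.16 in R 4.3.3: quasi-likelihood tests, TMM factors, the filterByExpr filter, and Benjamini-Hochberg adjustment over all genes tested with a threshold of 0.05. Errors after ± are standard errors. Values without ± are single libraries or values given without an error, such as medians, means, ratios, correlations and fold changes under alternative settings. DESeq2 1.42.0, other scales and filters, thinned cells, subtraction of outside RNA and leaving out each library were alternatives, with library totals alone and a crossed block added after seeing the data. The fits were tested on simulated data. All 10 members passed the filter in each fit but that of the genotypes in GOBLET (9). The genes named from the lists were those with the greatest absolute differences in a type, the genes most alike those with the highest correlation over sums, while Dnajb1 and Hspa1a in ISC were picked after their values were seen. Matrices held 54230249 to 61032126 UMIs, and kept cells 3009636 to 27285079. Intervals for shares of cells are exact binomial.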

Additional observations from a re-analysis of the deposited data

Results flagged for a closer look

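By CPM, Dusp1, the MAP kinase phosphatase, lay on opposite sides in 2 types. Its mean CPM in APC-KO was 0.765 times that in WT in EC, with both APC-KO libraries below both WT libraries, and 1.43 times that in WT in GOBLET, with both APC-KO libraries above. Neither passed the edgeR test between genotypes (EC −0.37 ± 0.22, adjusted p = 0.677, and GOBLET 0.16 ± 0.35, adjusted p = 0.910). The genotypes lay apart for 38.2% of genes in EC and 41.6% in GOBLET. In GOBLET, APC-KO replicate 2 was at 26.5 CPM, close to the WT mean of 24.7. These are CPM without TMM. In the fit between types the TMM factors in GOBLET were 0.64 and 0.60 in WT and 0.85 and 0.67 in APC-KO. With CPM divided by these factors, APC-KO replicate 2 lay within the WT range, so the separation in GOBLET depends on the scale. The difference between the types was not tested, and the GOBLET value of APC-KO replicate 1 rests on 28 cells.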

How the results depend on the processing

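Only 2 libraries stand for each genotype, and 1 of the APC-KO libraries holds 356 cells, so genotype values depend on single libraries. Of 1320 recomputed differences between types (120 differences under 11 settings), 1238 kept their direction and side of the threshold, 42 lost and 32 gained a call, and 8 turned. With library totals alone 11 lost and 8 gained a call, and 4 turned: Junb in PANETH (−0.37), Egr1 in EEC-PRE (0.022), Ier2 in NON-EC (0.20) and Fos in SEC-PRO (0.056). Without WT replicate 1, 12 lost a call. In NON-EC, Dusp1 (0.029) turned to −0.020 with no filter, and without single libraries it ranged from −0.010 to 0.050 and Fos from −0.062 to 0.14. The number of members called by type moved by over 1.5 times in NON-EC and PANETH (9 and 5 higher with library totals alone) and SEC-PRO (3 lower with the DESeq2 Wald test, 3 with library totals alone, 8 with no filter, and 3 to 7 without single libraries).

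The labels do not say whether same-numbered libraries belong together. Deviations of same-numbered libraries correlated at −0.25 over all cells, and within types at −0.05 (EC), −0.02 (GOBLET) and −0.01 (GOBLET-PRE). With 2 libraries per genotype the crossed pairs give the same values with the opposite sign. Sums over all cells also carry the mix of types, so these values do not settle the pairing. Genes called between genotypes in all cells (0) were 4 with the replicate block, 1 with the crossed block, 23 with the DESeq2 Wald test, 21 with no filter and 0 to 483 without single libraries. In EC (0) they were 132 with the crossed block, 30 with thinned cells, 6 with the DESeq2 Wald test, 174 with no filter and 0 to 405 without single libraries. In GOBLET (5) they were 73 with the replicate block, 2 with the crossed block, 3 with thinned cells, 3 with outside RNA subtracted, 10 with library totals alone, 79 with no filter and 0 to 21 without single libraries. In GOBLET-PRE (1) they were 110 with the replicate block, 3 with thinned cells, 38 with the DESeq2 Wald test, 0 with outside RNA subtracted, 3 with library totals alone, 280 with no filter and 7 to 64 without single libraries. Members called in GOBLET were 4 with the replicate block and 4 with no filter. Without single libraries 0 to 1 members were called in all cells and 0 to 1 in EC, and the median fold change of the members ranged from −0.88 to 0.43 in all cells and from −0.51 to 0.17 in EC.

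Genotype fold changes turned in sign in 8 cases under settings that keep all libraries, from values of 0.05 to 0.10, and in 42 cases without a single library, some of them from large values (Fos and Zfp36 in GOBLET). The former were Jun in all cells (−0.0086 with library totals alone), Ier2 in all cells (−0.076 with library totals alone, −0.063 with the replicate block, −0.063 with the crossed block and −0.039 with thinned cells), Atf3 in EC (−0.016 with library totals alone and −0.016 with thinned cells) and Ier2 in GOBLET-PRE (−0.036 with library totals alone). Without single libraries the log2 fold changes in all cells ranged from −0.77 to 0.31 for Atf3, −1.34 to 0.39 for Cyr61, −1.11 to 0.55 for Dusp1, −0.31 to 0.47 for Egr1, −0.99 to 0.23 for Fos, −0.50 to 0.21 for Fosb, −0.72 to 0.58 for Ier2, −0.39 to 0.51 for Jun, −0.99 to 0.19 for Junb and −1.95 to 0.59 for Zfp36. In EC they ranged from −0.080 to 0.18 for Atf3, −0.74 to 0.11 for Cyr61, −0.53 to 0.30 for Ier2, −0.032 to 0.44 for Jun, −0.54 to 0.12 for Junb and −1.45 to 0.16 for Zfp36. In GOBLET they ranged from −0.012 to 0.57 for Dusp1, −0.11 to 1.72 for Fos, −0.58 to 0.15 for Junb and −1.33 to 2.21 for Zfp36. In GOBLET-PRE they ranged from −0.35 to 0.16 for Atf3, −0.71 to 0.17 for Cyr61, −0.52 to 0.11 for Dusp1, −0.15 to 0.50 for Egr1, −0.60 to 0.085 for Fos, −0.41 to 0.073 for Fosb, −0.22 to 0.36 for Ier2, −0.59 to 0.016 for Junb and −1.39 to 0.35 for Zfp36. Where 1 library of a genotype was left, it is assumed to vary like the other genotype's. The cause of these changes was not tested.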
